A study of Homo sapiens with 12 samples.

Results

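Of the 842183 positions in the deposited AlkAniline-Seq tables, 7675 (0.911%) carried at least 1 read in every one of the 6 AlkAniline-Seq libraries, and these positions are described here. Members were chosen on those 6 counts alone, and the input libraries took no part in the choice. Another 397010 positions were read in 1 to 5 AlkAniline-Seq libraries, so the 7675 made up 1.897% of the 404685 positions read in any of them. They lay in 2701 of the 18569 Ensembl gene IDs in the tables. LNCaP-AI cells, a castration-resistant prostate cancer line derived from LNCaP, carried either a hairpin against METTL1 (shMETTL1) or a scrambled control hairpin (shscramble). Every library, control and knockdown, input and AlkAniline-Seq, is labelled as having been under androgen deprivation therapy. Each group had 3 replicates, which the study calls biological, and each replicate had an AlkAniline-Seq library and an input library, 12 libraries in all. The hairpins were stably expressed in a single cell line, so the replicates of a group share one line.

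METTL1, working with its partner WDR4, is the methyltransferase that places N7-methylguanosine (m7G) inside tRNAs, and it has also been described to act inside mRNAs. In AlkAniline-Seq, alkali and aniline open the RNA chain at m7G and leave an end to which an adapter can be joined, so that reads begin at a single base. The input library of a replicate gives the read ends and coverage that are present without that enrichment. The count at a position is therefore read beside the coverage, which is the number of reads that span it, and beside the same values in the input. The knockdown hairpin, shown because it defines the knockdown group, had 46 bases, with the 21 bases of each stem arm in capitals and the 4-base loop in lower case.
shMETTL1: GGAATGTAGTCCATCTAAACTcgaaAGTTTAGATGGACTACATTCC
The tables pair each position with a gene ID but give neither a coordinate nor a base, so no sequence of a position is shown, and whether the base is a G was not tested. The level of METTL1 could not be read, as the files pair no symbol with an ID. For the same reason prostate identity rests here on the single luminal marker that could be named, KLK2, which held 6 of the positions.

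Libraries differed in ways the groups do not explain. Deposited counts summed to 1421551 to 2764417 per AlkAniline-Seq library and to 2783709 to 3258499 per input. The library of shscramble replicate 1 listed 166443 positions with a read, against 86641 to 116013 in the other five, and it set few limits on the choice: 177 positions were read in all the other libraries but not in it, against 935 to 2015 for each of the others. Across the 7289 members with distinct values, Pearson's r of its log2 counts with shscramble replicates 2 and 3 was 0.637 and 0.582, while every other pair of AlkAniline-Seq libraries lay between 0.336 and 0.495. The input of shscramble replicate 2 also stood apart. It had a median of 6 reads at a member and no read at 1549 of them, whereas the other inputs had medians of 37 to 44 and read 7027 to 7398. Its r with the other inputs was 0.531 to 0.557, and pairs without it gave 0.723 to 0.784. These correlations run over positions of the same genes and are descriptions only.

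A position entered with a single read in each library, and many did so barely. The lowest of a member's 6 counts had a median of 3 and the highest a median of 110. In 2851 members (37.2%) at least 1 library had a count of 1, and in 1 member, a position of TSPAN14, every library had a count of 1. Just outside the rule lay 7898 positions read in exactly 5 libraries, whose lowest nonzero count had a median of 1 when any given library was the missing one, and reached 178. Asking for 2 reads in every library left 4824 positions, asking for 10 left 2007, and asking for 1000 left 19. Counts at one position varied widely between libraries. The highest was a median of 27 times the lowest, and 5.30 times among the 2007 members with 10 or more reads everywhere. Positions were not independent either: 747 members had the same 24 count and coverage values as a member under another gene ID, in 361 sets, which is what genes that share their reads would give, and values of such genes cannot be assigned to one of them.

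The inputs, which did not enter the choice, were read at most of these positions. Of the members, 5336 (69.5%) had a read in all 6 inputs, against 1.52% of all positions in the tables. The share climbed with the number of AlkAniline-Seq libraries, from 0.193% of positions read in 1 library to 13.2% for 4 and 32.3% for 5. Input coverage climbed alongside it, with a median over the 6 inputs combined of 8 reads for positions read in 1 library, 662.5 for 5 and 1656 for the members. Among positions with a coverage of 20 or more in every input, the share was still 1.18% for 1 library, 44.3% for 5 and 80.4% for the members. Within a band of summed input coverage from 1000 to just under 10 times that, the share likewise climbed, from 1.13% for 1 library to 46.4% for 5 and 80.1% for the members. At the other end, 17 members had no input read in any library. Of these, 6 had no input coverage either, and the highest AlkAniline-Seq count among the 17 was 173.

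**Figure D1:**
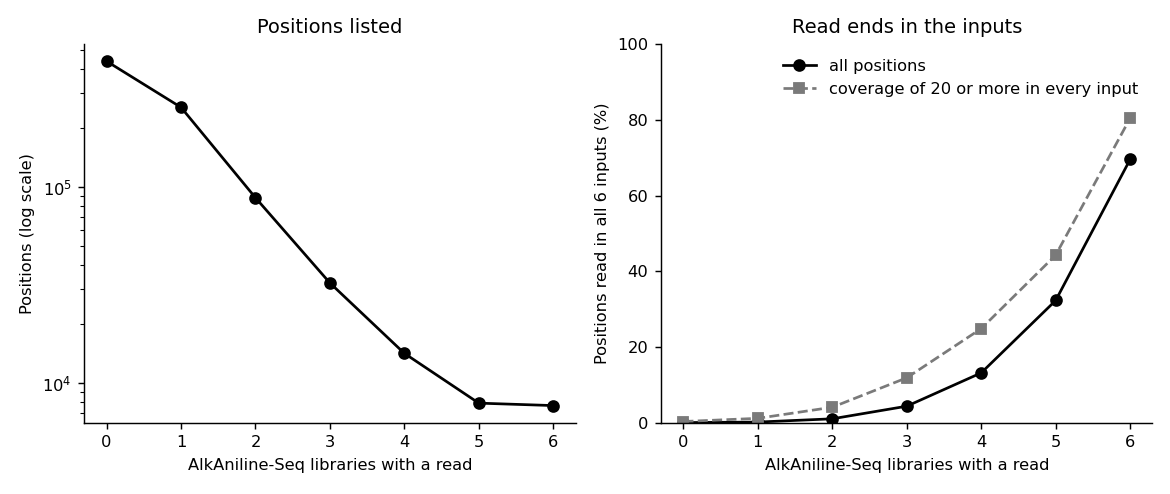
Positions grouped by the number of AlkAniline-Seq libraries, of 6, in which they had a read. The left panel gives the number of positions on a log axis, from 437498 read in none to 7675 read in all, and the right panel gives the percent with a read in all 6 inputs, for all positions (circles) and for positions with a coverage of 20 or more in every input (squares), which reach 69.5% and 80.4% for the members.

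The members held a larger share of input counts than of AlkAniline-Seq counts, in every replicate. In AlkAniline-Seq they took 30.3%, 32.2% and 33.0% of the counts of shscramble replicates 1 to 3 and 25.5%, 27.95% and 32.2% of those of shMETTL1. The groups met, since shMETTL1 replicate 3 reached the level of shscramble, and because these counts chose the members they are given without a test. In the input the members took 42.4%, 45.9% and 39.5% of counts in shscramble and 33.6%, 38.4% and 37.3% in shMETTL1. All shMETTL1 inputs lay below all shscramble inputs, and the means were 36.5% ± 2.50 (SD, n = 3) against 42.6% ± 3.19 (SD, n = 3) in the control. The exact two-sided permutation test gave p = 0.1, the smallest that 3 against 3 libraries allow. The inputs share their samples with the libraries that chose the members, so this difference is not free of the choice. In shMETTL1 replicate 1, which had the lowest share, the input listed 311979 positions with a read. That of shscramble replicate 2, which had the highest, listed 72098, and the other inputs 153839 to 165105. Whether this breadth bears on the share was not tested. The groups stayed apart without the single most read position, where shscramble had 36.8% to 43.2% and shMETTL1 31.0% to 36.2%, and among members with 5 or more reads in each library. Measured as a share of input coverage instead, the members had 18.7% ± 1.33 (SD, n = 3) and 17.4% ± 0.889 (SD, n = 3), with p = 0.3 by the same exact test.

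**Figure D2:**
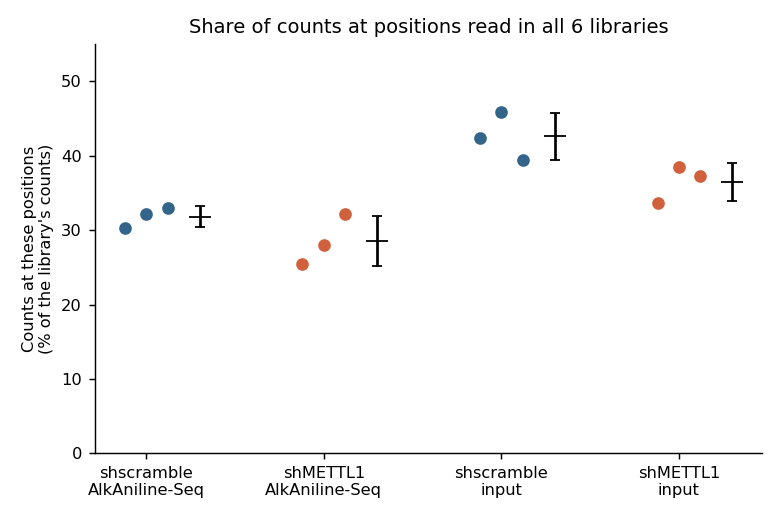
Counts at the 7675 positions as a percent of each library's counts, for AlkAniline-Seq and input libraries of shscramble (blue) and shMETTL1 (orange). Points are the 3 replicates and bars give mean ± SD; the shMETTL1 inputs (33.6% to 38.4%) lie below the shscramble inputs (39.5% to 45.9%), while the AlkAniline-Seq groups overlap.

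Most positions with the highest AlkAniline-Seq counts had higher counts in the input. Exceptions were the positions ranked 6 and 10, where AlkAniline-Seq was the higher in all 6 replicates, rank 8 in 4, rank 5 in 2 and rank 9 in 1. These are raw counts, not scaled for depth, and every AlkAniline-Seq library summed to fewer counts than its input. The position with the highest geometric mean, under ENSG00000008988, had 15761, 24377 and 11920 reads in shscramble and 13428, 15599 and 19604 in shMETTL1. Its inputs had 130788, 82697 and 82486 reads in shscramble and 87289, 70060 and 60976 in shMETTL1. Reads ending at it made up 84.2% to 91.7% of its AlkAniline-Seq coverage and 92.0% to 95.4% of its input coverage, so it was a dominant end in both kinds of library. Next came a position of SLC7A5, the light chain of the large neutral amino acid carrier, with 5159, 12100 and 5650 reads in shscramble and 4585, 16284 and 14915 in shMETTL1. The groups overlapped, and the inputs had 15295 to 51509 reads there. The positions ranked 3 and 4, under ENSG00000198918 and OOEP, a gene known from the oocyte, had counts in a ratio of 0.935 to 1.02 in every library. Input reads at that pair also ran in parallel, so the OOEP values may hold reads of the other gene and are uncertain. Under ENSG00000162669, at rank 6, AlkAniline-Seq counts were higher than input counts in every replicate, 2550 to 7364 against 814 to 2509, yet the ends were a small part of coverage in both, 4.9% to 9.6% and 4.2% to 6.3%. The positions ranked 11 and 12 were 2 of 3 gene IDs with identical values.

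**Figure D3:**
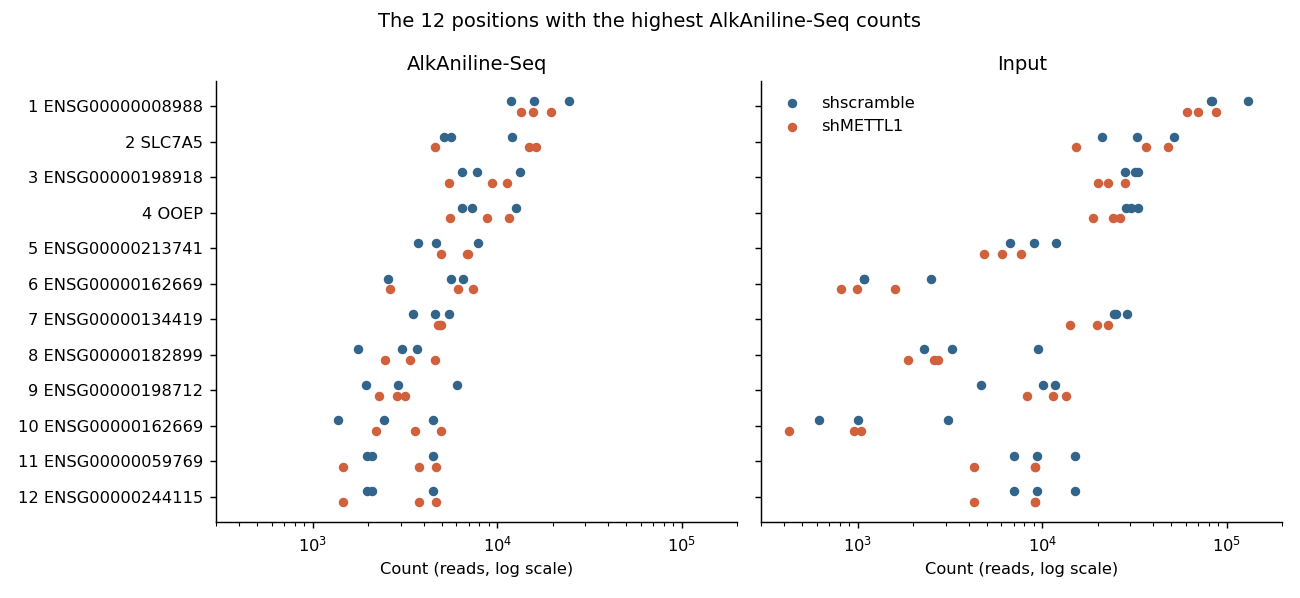
AlkAniline-Seq counts (left) and input counts (right) per library at the 12 positions with the highest geometric mean AlkAniline-Seq count, on log axes, for shscramble (blue) and shMETTL1 (orange). At ENSG00000008988 the AlkAniline-Seq counts of the groups overlap (11920 to 24377 and 13428 to 19604), and input counts reach 130788.

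Some positions were ends for every read that covered them. At 357 members the count equalled the coverage in all 6 AlkAniline-Seq libraries, and 48 of these had 10 or more reads in each. The deepest was a position of ENSG00000197182, with 766, 899 and 986 reads in shscramble and 964, 729 and 1216 in shMETTL1, all of them ends. Its inputs had 109 to 216 reads, of which 99.5% to 100% were ends as well. Of the 357, 144 were read in all 6 inputs.

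Set against its own input, the share of coverage was not higher at most members. The median over members was 15.5%, 15.1% and 14.3% of coverage in the AlkAniline-Seq libraries of shscramble and 12.6%, 11.8% and 14.2% in those of shMETTL1. In the inputs it was 16.4%, 9.04% and 15.9% in shscramble and 19.2%, 16.9% and 16.1% in shMETTL1, where the low value is that of the input that stood apart. The input medians were 13.8% ± 4.11 (SD, n = 3) and 17.4% ± 1.63 (SD, n = 3), with p = 0.2 by the exact permutation test, and the difference of 3.63 points was 1.27 without shscramble replicate 2. The AlkAniline-Seq share exceeded the input share in 36.4% to 56.9% of members, depending on the replicate. In all 6 replicates it did so at 251 members and lay below the input at 499. Among the 2007 members with 10 or more reads in every library, these numbers were 97 and 224.

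A share 2 or more times the input's in every replicate was seen at 10 members. In 5 of them no input had a read there, the lowest AlkAniline-Seq count was 1 to 3, and the fold of 2 came from the authors' rule that adds 1 to the share where the input share is 0. In the other five the input coverage was 20 or more throughout. The most read of these, under ENSG00000196230, had 233, 219 and 31 reads in shscramble and 505, 274 and 234 in shMETTL1, or 8.2% to 24.8% of coverage, against 1.0% to 5.4% in the inputs. Under ENSG00000105202 the counts came to 63, 156 and 85 in shscramble and 93, 160 and 178 in shMETTL1, or 5.2% to 11.6% of coverage against 0.2% to 2.8%. In share of coverage the groups overlapped at both positions. A share 2 or more times the input's in every shscramble replicate and no shMETTL1 replicate was seen at 73 members (0.951%) and the reverse at 21 (0.274%), where all positions read in any AlkAniline-Seq library gave 0.269% and 0.0573%. That background includes 254492 positions read in only 1 library, which cannot reach that fold in every replicate of a group. Members had a read in all 6 by the rule, so these percentages are not like for like. For all of these counts the input of shscramble replicate 2 supplied one of the 6 comparisons, and 56.9% of members exceeded it, the highest value of any replicate.

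**Figure D4:**
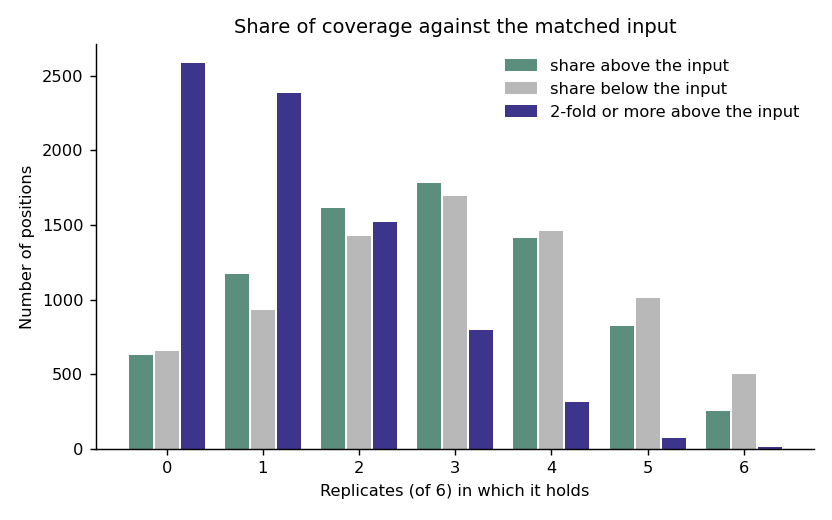
Number of the 7675 members whose share of coverage lay above the matched input (green), below it (grey) or 2-fold or more above it (violet), by the number of replicates, of 6, in which this held. In all 6 replicates these were 251, 499 and 10 members.

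The comparison of shMETTL1 with shscramble asks whether AlkAniline-Seq counts at these positions differed after knockdown. These counts were tested without coverage or input, so differences in cleavage and in transcript level cannot be told apart here. Since AlkAniline-Seq counts chose the members, their results stand as a description beside those of all positions. By edgeR's quasi-likelihood test with Benjamini-Hochberg adjustment, 0 of 13973 positions tested passed an adjusted p of 0.05 (0.0% in either direction), members included. In counts simulated with the estimated dispersions, this test recovered 0 of 50 positions changed 16-fold, so 0 calls cannot show the absence of a change. Of the 6375 members tested, 102 were higher and 90 lower in shMETTL1 at an unadjusted p under 0.05, or 1.60% and 1.41%, where all tested positions gave 1.88% and 6.32%. The numbers depended on single libraries. Without shMETTL1 replicate 1, 340 of 6893 members tested were higher and 18 lower, beside 1531 of all 33480 positions in either direction. Without shscramble replicate 1, 53 of 6795 were higher and 38 lower, beside 1080 of all 20936 positions in either direction. DESeq2 called 52 members higher and 69 lower after adjustment, or 0.816% and 1.08%, against 1.24% and 3.72% of all positions. Counts scaled to each library's deposited total (CPM) did not overlap between groups at 260 members that were higher in shMETTL1, 4.08% against a background of 3.64%, and at 618 that were lower, 9.69% against 12.9%.

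The members with the lowest p in each direction were not those with the most reads. A position of ENSG00000110777 had 799, 223 and 5497 reads in shscramble and 17, 7 and 11 in shMETTL1, a log2 difference of -7.98, without overlap. Nearly all reads covering it ended there: coverage exceeded the count in shscramble replicate 3 alone, at 5498, and the inputs had only 9 to 24 reads. A position of ENSG00000189108 had a similar pattern, with 783, 64 and 5736 reads against 17, 8 and 13. In both, shscramble replicate 3 held most of the control reads, and without it the log2 differences were -5.52 and -5.29. In the other direction a position of ENSG00000130939 had 6, 5 and 1 reads in shscramble and 318, 122 and 299 in shMETTL1, while its inputs had 51 to 592 reads and overlapped. A position of ENSG00000180535 had 5, 34 and 5 reads against 251, 425 and 304, with input counts of 1 to 37. The gene IDs of these 4 positions could not be named.

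Input counts, which the choice did not use, gave 0 calls of 20840 positions tested by edgeR (0.0% in either direction). They come from the same samples as the counts that chose the members, so they are not free of the choice. In counts simulated with the estimated dispersions, edgeR recovered 0 of 50 input positions changed 16-fold. At an unadjusted p under 0.05, 52 of the 5964 members tested were higher in shMETTL1 and 231 lower, or 0.872% and 3.87%, beside 2.68% and 2.93% of all positions. DESeq2 called 2 members higher and 2 lower, 0.0335% each way, against 0.072% and 0.106% of all positions. Input CPM of the groups did not overlap at 389 members that were higher in shMETTL1, 6.52% against a background of 8.94%, and at 281 that were lower, 4.71% against 2.63%. Without shscramble replicate 2, a comparison added after seeing the data, these were 9.67% against 11.4% and 12.5% against 11.5%. The excess of lower members at that p shrank with library size, to 82 higher and 91 lower, beside 820 of all 20840 positions. Without shscramble replicate 2 it turned, with 151 of 6464 higher and 79 lower, beside 2121 of all 40521 positions. DESeq2 gave 92 higher and 322 lower, beside 1905 of all 20840. Leaving out any other replicate left 21 to 68 higher and 132 to 471 lower, beside 1738 to 3481 of all 30587 to 35225. The numbers for all positions take both directions together. The member with the lowest p was the most read position itself, under ENSG00000008988, with a log2 difference of -0.61 ± 0.13 (SE) and an adjusted p of 0.50 in edgeR, and of -0.26 with library size and -1.27 by DESeq2. At a position of CALD1, an actin-binding protein of the contractile apparatus, the shscramble inputs had 0 reads in all replicates and the shMETTL1 inputs 39, 28 and 128, with an adjusted p of 0.68, and its AlkAniline-Seq counts overlapped between groups. Summed over gene IDs, 0 of 11740 passed (0.0% in either direction, lowest adjusted p 0.75). At an unadjusted p under 0.05, 25 of the 2628 tested IDs with a member were higher and 230 lower. These were 0.951% and 8.75%, against 1.64% and 4.62% of all IDs. Without shscramble replicate 2 the counts were 84 and 156 of 2655, beside 890 of all 12550 IDs in either direction. With library size they were 70 and 88, beside 475 of all 11740 in either direction. The median log2 difference of the IDs with a member was -0.28, and that of all IDs -0.04, while library size gave 0.06 and 0.22.

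Testing AlkAniline-Seq and input together, as an interaction in edgeR, gave 64 positions higher and 3 lower in shMETTL1 of 36841 (0.174% and 0.00814%), of which 17 and 3 were members. The higher calls depended on the scaling, the pairing and every replicate. With library size in place of TMM scaling, 2 members were higher and 3 lower, and with the AlkAniline-Seq and input library of a replicate as a block, 0 were higher and 2 lower. Leaving out any 1 replicate left 1 to 4 higher and 0 to 3 lower. The 3 lower calls were positions of ENSG00000110777, ENSG00000189108 and ENSG00000100207, at -7.35, -7.67 and -6.89. Lower calls among members stayed at 2 to 3 in the other settings, except that 0 were left without shscramble replicate 3. That library held most control reads of all 3 positions. The median log2 difference over all tested positions was itself -0.37 with TMM and -0.80 with library size. The SLC7A5 position at rank 2 was called at 1.40, or 1.78 above that median, but gave 0.36 with library size and -0.28 without shscramble replicate 2. By the study's own thresholds on the fold over input, 68 members were higher and 161 lower, 0.886% and 2.10%, against 0.203% and 1.05% of all positions read in any AlkAniline-Seq library. Most of those positions lacked a read in some libraries, so here too the percentages are not like for like.

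Members clustered in few genes. While 1559 gene IDs held 1 member each, 147 held 10 or more and together had 2710 members (35.3%). ENSG00000198804 had the most, 79 of its 238 positions. Summed over them, AlkAniline-Seq CPM came to 5286, 4649 and 5059 in shscramble and 8035, 6779 and 5871 in shMETTL1, and input CPM 5340, 4217 and 4930 against 6110, 5653 and 5073. The AlkAniline-Seq values of the groups did not overlap, which among all IDs with a member happened in this direction at 4.07% and in the other at 11.0%. ENSG00000150991 had 78 members with sums of 1174 to 1467 in shscramble and 1134 to 1537 in shMETTL1, fully overlapping. ENSG00000100316 had 32 members, with AlkAniline-Seq sums of 768 to 960 CPM in shscramble and 643 to 742 in shMETTL1, lower without overlap. ENSG00000142515 had 40 members. Its AlkAniline-Seq sums were 2099, 1630 and 1918 CPM in shscramble and 1329, 1473 and 1216 in shMETTL1, also lower without overlap. Its input sums were 2320, 2345 and 2293 CPM in shscramble and 1199, 1431 and 1247 in shMETTL1, without overlap. Such a gap in the input was seen at 5.66% of IDs with a member, and in the gene test the log2 difference of this ID was -1.10 ± 0.26 (SE), with an adjusted p of 0.75 by edgeR.

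Symbols could be tied to 115 gene IDs, through fold values shared with a table of genes that the study selected. Selection was for a change in both mRNA and m7G level after METTL1 knockdown in LNCaP-AI cells, the m7G level from these same samples. The direction of these genes is therefore no independent evidence, in AlkAniline-Seq or in the input. Of the 115, 52 held 185 members. Only at OOEP, FN1 and CALD1 was the position by which the gene was tied itself a member. Summed over a gene's members, AlkAniline-Seq CPM of the groups overlapped for 44 of the 52, lay higher in shMETTL1 for 3 (background 4.07%) and lower for 5 (background 11.0%). In the input 43 overlapped, 6 were higher (background 6.59%) and 3 lower (background 5.66%).

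The named genes were then grouped by known function, with their values already seen. The 3 amino acid carriers held 28 members, of which 23 were read in all 6 inputs. SLC7A5 had 15, with sums of 3507, 5410 and 4736 CPM in shscramble and 2282, 7052 and 7046 in shMETTL1. Its heavy-chain partner SLC3A2 had 7, with 99.9 to 131 in shscramble and 52.8 to 151 in shMETTL1, and the glutamine carrier SLC1A5 had 6. None of these separated the groups. The synthetases that charge tRNAs with glycine (GARS), serine (SARS) and tryptophan (WARS) held 16 members. Input sums at GARS were 115, 161 and 58.8 CPM in shscramble and 176, 182 and 203 in shMETTL1, without overlap (exact permutation test, p = 0.1, the smallest possible), whereas its AlkAniline-Seq sums overlapped. PCK2, the mitochondrial enzyme that makes phosphoenolpyruvate, had 8, asparagine synthetase (ASNS) 3 and the serine pathway enzyme PSAT1 1, and all of them overlapped. Of the 22 genes in a list of the amino acid response driven by the transcription factor ATF4, 9 could be named and 7 held 42 members. Their median input log2 difference was 0.84, while IDs with a member had -0.28. The study had selected the named genes for a changed mRNA level, so this contrast is no independent evidence. List genes without a name have no value here. No named gene of the list passed the input gene test.

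**Figure D5:**
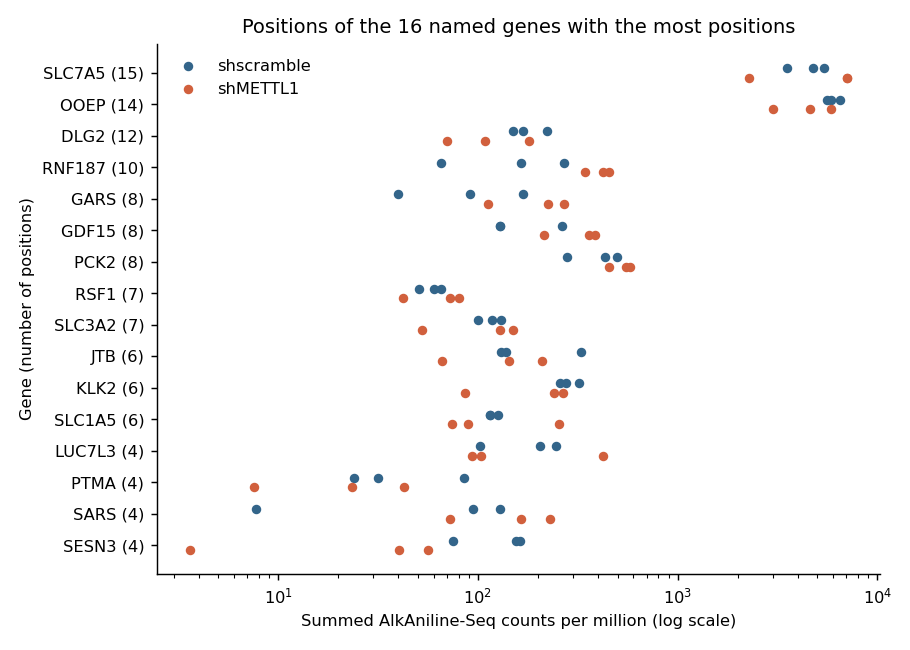
AlkAniline-Seq CPM summed over the members of each gene, on a log axis, for the 16 named genes with the most members (number of members in brackets). Points are the 3 replicates of shscramble (blue) and shMETTL1 (orange); RNF187 lies higher and SESN3 lower in shMETTL1 without overlap, and the other genes overlap.

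Among stress genes, GDF15, a secreted stress cytokine, had 8 members with sums of 129, 129 and 262 in shscramble and 385, 359 and 213 in shMETTL1, which overlapped. The 2 members of HERPUD1, a membrane protein of endoplasmic reticulum protein quality control, had input sums of 363 ± 85.3 CPM (SD, n = 3) after METTL1 knockdown against 134 ± 10.7 CPM (SD, n = 3) in the control, without overlap. Their AlkAniline-Seq sums overlapped. SESN3, a sestrin that restrains growth signalling, had 4 members with AlkAniline-Seq sums of 163, 154 and 75.3 in shscramble and 56.5, 3.62 and 40.4 in shMETTL1. Its input sums were lower too, 50.3 ± 36.6 CPM (SD, n = 3) after knockdown against 128 ± 56.1 CPM (SD, n = 3), but overlapped. This was 1 of the 5 named genes lower without overlap, with B4GALT2, FAM73B, PRKAR1A and SIRT6, which had 1 member each. Input at PRKAR1A went the other way without overlap, 72.3, 0.65 and 49.3 CPM in shscramble and 113, 80.3 and 77.6 in shMETTL1. B4GALT2 had 20, 191 and 7 reads in shscramble and 1 in each shMETTL1 library. Input sums at B4GALT2 and FAM73B overlapped. At SIRT6, a nuclear deacylase, the 3 counts in shMETTL1 were 2, 3 and 2, against 28, 88 and 70 in shscramble, and input sums overlapped. The 3 named genes higher without overlap were RNF187, MLST8 and CALD1. RNF187, a ubiquitin ligase, had 10 members with sums of 164, 270 and 65.4 in shscramble and 422, 455 and 342 in shMETTL1, and overlapping input sums. MLST8, a subunit of both mTOR complexes, had 2 members with 184 ± 35.4 (SD, n = 3) and 270 ± 33.2 (SD, n = 3) CPM.

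KLK2, an androgen-driven secreted protease of the prostate lumen, had 6 members. Their AlkAniline-Seq sums were 320, 258 and 275 CPM in shscramble and 239, 268 and 86.1 in shMETTL1, which overlapped. The input sums were 1006, 679 and 489 CPM in shscramble and 374, 315 and 259 in shMETTL1, without overlap, and in the gene test the log2 difference was -1.68 ± 0.34 (SE), with an adjusted p of 0.75 by edgeR. Nuclear proteins (PTMA, NASP, HMGB2, ANP32B and RSF1) held 19 members, polyamine enzymes (ODC1, SRM and SAT1) 6 and the proton pump genes ATP6AP1 and ATP6V0B 1 each. AlkAniline-Seq sums overlapped between groups for every gene in these 3 sets. No member could be named for ribosomal proteins, translation factors, mitochondrial proteins, glycolysis, chaperones, the cytoskeleton, m7G writers and readers or splicing factors, nor for markers of basal, stromal, endothelial, blood or neuroendocrine cells, since none of their symbols was tied to an ID.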

How the data were processed

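The authors deposited, for each position and library, counts of reads at the position, the coverage (reads spanning it), the fraction of count over coverage, and the ratio (fold) of that fraction over the input's. Tools listed in the submitters' processing notes were bedtools 2.24, Bowtie2 2.2.4 and cutadapt 1.9.1, on the hg19 build, with no roles; read filters, strand, duplicate handling and annotation were not stated. Rows were matched between tables by order, which every table's gene IDs shared. Columns of every table were mapped to samples. The edgeR 4.0.16 quasi-likelihood test (R 4.3.3, TMM, minimum count 10, minimum total 15) was run on all positions or gene IDs, with a threshold of 0.05 after Benjamini-Hochberg, and standard errors were derived from F. DESeq2 1.42.0 and limma 3.58.1 (pseudocount 0.01) were alternatives. Single values were compared by exact permutation (scipy 1.17.1). CPM are counts over the deposited total of a library, without TMM. In counts simulated with the dispersions estimated here, edgeR recovered 0 of 50 positions changed 16-fold (AlkAniline-Seq, 13973 positions) and 12 of 50 gene IDs (11740 IDs); with a low dispersion it recovered 49 and 50. Symbols came from fold values matched within 2e-08, since 0 of 18569 IDs matched the reference table. Members, lists and tests were chosen with earlier results of these data known. Positions were named as the 12 with the highest geometric mean, the 12 gene IDs with most members and the lowest p in each direction; the positions with a 2-fold share, those with full coverage, and tied genes outside the lists were added after their values were seen. One set of tied genes is not reported here.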

Additional observations from a re-analysis of the deposited data

How the results depend on the processing

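Numbers of members called, higher and lower together, moved with the processing, and the cause was not tested. For AlkAniline-Seq counts, 0 in edgeR, it was 121 by DESeq2, 8 without the filter, 27 by limma on the share of coverage and 3 to 25 with 1 library left out. Of all 13973 positions tested, DESeq2 called 173 higher and 520 lower, and limma 51 and 425. The fit without the filter called 3 and 6 of all 190663. The methods' t-test, run on the fold over input and not on the counts, gave 229 at the study's thresholds and 7 after Benjamini-Hochberg. Of all 404685 positions, that t-test called 822 higher and 4229 lower at those thresholds, and 169 and 1408 after adjustment. Without shscramble replicate 3, where 25 members were called, 5426 of all 29677 positions tested were called lower and 218 higher. Leaving out any other library called 0 to 23 higher and 3 to 8 lower of all 20936 to 35134 positions tested. For input counts per position, also 0, it was 4 by DESeq2, 3 without the filter and 0 to 47 with 1 library left out. All positions gave 15 higher and 22 lower of 20840 by DESeq2, and 0 and 14 of 298409 without the filter. With 1 library left out they gave 0 higher and 0 to 162 lower, of 30587 to 40521. For input counts per gene ID it was 1 by DESeq2, 49 without the filter and 0 with any 1 library left out. Of all IDs, DESeq2 called 12 higher and 19 lower of 11740, and the fit without the filter 1 and 94 of 17939. For AlkAniline-Seq over input it fell from 20 to 5 with library size and to 3 to 6 with 1 replicate left out. With the replicate block, the members called numbered 5 (AlkAniline-Seq), 6 (input positions), 2 (input gene IDs) and 2 (over input). Deviations of samples with the same number correlated at 0.01 to 0.06, too weakly to pair them, although every shscramble sample was closest to the shMETTL1 sample of its number. Library size scaling moved the median log2 difference over all positions from 0.02 to -0.08 in AlkAniline-Seq and from 0.13 to 0.31 in the input, and over gene IDs from -0.04 to 0.22.

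Single positions turned in direction in these settings. The most read position, ENSG00000008988, was -0.19 in AlkAniline-Seq but 0.62 without shMETTL1 replicate 1 and 0.21 without shscramble replicate 3, in a range from -0.29 with 1 library left out. Over input it was 0.72 but -0.045 with library size and between -0.38 and 0.36 with 1 replicate left out (-0.14, -0.32, -0.04 and -0.38 where it turned). The SLC7A5 position was 0.59 in AlkAniline-Seq but -0.14 by share of coverage; in the input it was -0.40 but 0.081 with library size and between -1.07 and 0.38 with 1 library left out, the latter without shscramble replicate 2. Over input it was 1.40 but between -0.28, without that replicate, and 0.905. The 2 positions with the lowest p for lower counts, ENSG00000110777 and ENSG00000189108, gave 0.00 and 0.025 by share of coverage. Their share was 95.5% to 100% in every AlkAniline-Seq library, so this measure could not show a change in their counts. The input share at the members, lower in shMETTL1 by 6.13 percentage points, kept its direction in every setting run, including the removal of the most read position and of repeated identical values, both chosen after seeing the data. The difference in the median input percent of coverage was 3.63 points but 0.27 from summed counts over summed coverage and 1.27 to 4.94 with 1 library left out. Asking for counts of 2, 5 or 10 left 4824, 2967 and 2007 of the 7675 members. The lowest count of a member had a median of 3, which limits what a single position can show.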
